A study of Danio rerio with 2 samples.

Results

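The 48 genes described here belong to the *slc1a*, *slc3a*, *slc6a*, *slc7a*, *slc36a*, *slc38a* and *slc43a* families, the solute carriers that move most amino acids across animal cell membranes. They were chosen by name from the 24900 genes counted in single islet cells of zebrafish larvae. Of 81 listed names with these 7 prefixes, 48 had at least 10 counts over the cells that passed a filter, 33 had fewer, and 21 of those 33 had no count at all. The cells came from 2 samples at 7 dpf. One was the control, Tg(gcga:GFP) larvae labelled wild type for the receptor genotype, and the other was gcgr-/-;Tg(gcga:GFP), which the study's methods describe as a double mutant of *gcgra* and *gcgrb*, the 2 zebrafish glucagon receptor genes. Both carried a GFP transgene driven by the promoter of *gcga*, a glucagon precursor gene, and GFP-positive cells from hand-picked islets were sorted into plates. How many larvae were pooled is not given in the sources used here. There was 1 sample per genotype, so no test was possible between genotypes or between cell classes, and no p-value is given.

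Glucagon acts on the liver, where it drives the use of amino acids, and amino acids in turn act on the glucagon cells of the islet. In mammals and zebrafish, loss of the glucagon receptor raises circulating amino acids and the number of glucagon cells, and in mice the glutamine transporter *Slc38a5* was found to be induced in these cells. Roles of the other genes named here are known mainly from mammals. The *slc38a* genes encode sodium-coupled carriers of small neutral amino acids such as glutamine and alanine. The *slc7a* light chains exchange large neutral or cationic amino acids and reach the cell surface when bound to the heavy chain encoded by *slc3a2*, and *slc43a2* encodes a carrier that lets branched-chain and aromatic amino acids pass without sodium. The *slc1a*, *slc6a* and *slc36a* families hold sodium- or proton-coupled carriers, among them transporters of neurotransmitters and taurine.

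Cells were kept when at least 500 genes were detected and at most 10% of counts came from mitochondrial genes, which left 156 of 192 control and 288 of 384 gcgr-/- cells with a median of 22042 and 25522.5 counts per cell. Although all cells are labelled alpha cells, only 109 of 444 were led by *gcga* or *gcgb*, meaning that one of these was the highest of 8 hormone genes and took at least 1% of the counts. In control and gcgr-/- the classes held 3 and 106 glucagon-led cells, 41 and 54 led by *ins*, 36 and 52 by *sst1.1*, 29 and 29 by *sst1.2*, 6 and 6 by *sst2*, 7 and 2 by *gip*, 3 and 12 by *ghrl*, and 31 and 27 with no leading hormone. The alpha cell list (*gcga*, *gcgb*, *arxa*, *pnoca* and *npb*) summed to 231334.2 CPM, counts of a gene per 1000000 counts, in gcgr-/- glucagon-led cells and to 3589.2 CPM in insulin-led cells of the same sample. Since the list holds *gcga* and *gcgb*, which define the glucagon-led class, this gap was fixed by the rule and is no check of the class. The *gcga* transcript was nevertheless counted in 100% of the gcgr-/- insulin-led cells, at 3206.8 CPM. Whether these counts came from the cells themselves, which were sorted for *gcga*-driven GFP, or from free RNA was not tested. Control cells with no leading hormone stood apart with 22189.1 CPM on 8 epithelial and duct genes. The targeted genes gave no check of the labels, since *gcgra* was seen in only 2 control cells (13 counts) and 3 gcgr-/- cells (23 counts), and *gcgrb* had a single count per sample, 1 in each. Libraries of 24 cells, read from the prefix of the cell name, held 1 genotype each, 8 of them control and 16 gcgr-/-. Library and genotype therefore cannot be told apart. The 48 well barcodes were used in both samples with no cell name shared.

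Most members were rare. Over the 444 cells, 34 of the 48 were counted in under 5% of cells and 7 in under 1%, and 13 had over 50% of their counts in 1 cell. Total counts per member ran from 15 to 3209 with a median of 57.5. In at least 5% of cells were 3 *slc38a*, 3 *slc7a*, 2 *slc3a*, 2 *slc6a*, 2 *slc43a*, 1 *slc1a* and 1 *slc36a* gene. A gcgr-/- glucagon-led cell had between 0 and 12 members with a count, with a median of 3, and 42 of the 48 were counted somewhere among the 106 cells. The 10 members counted in the largest share of cells were *slc38a2* (46.8%), *slc3a2b* (44.1%), *slc1a4* (31.8%), *slc43a2b* (27.5%), *slc43a2a* (89 cells), *slc6a17* (17.1%), *slc7a6os* (16.0%), *slc6a16b* (13.5%), *slc7a7* (12.4%) and *slc3a2a* (9.91%). Of these, *slc7a6os* matched by its prefix alone. It is named for the strand opposite *slc7a6* and is not a transporter. The counting options listed in the study's methods set no strand, so reads of either strand may have been counted. Duplicated pairs such as *slc3a2a* and *slc3a2b* can share reads. The listed options also set nothing for reads that match more than 1 place, so the split of these pairs is uncertain.

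**Figure D1:**
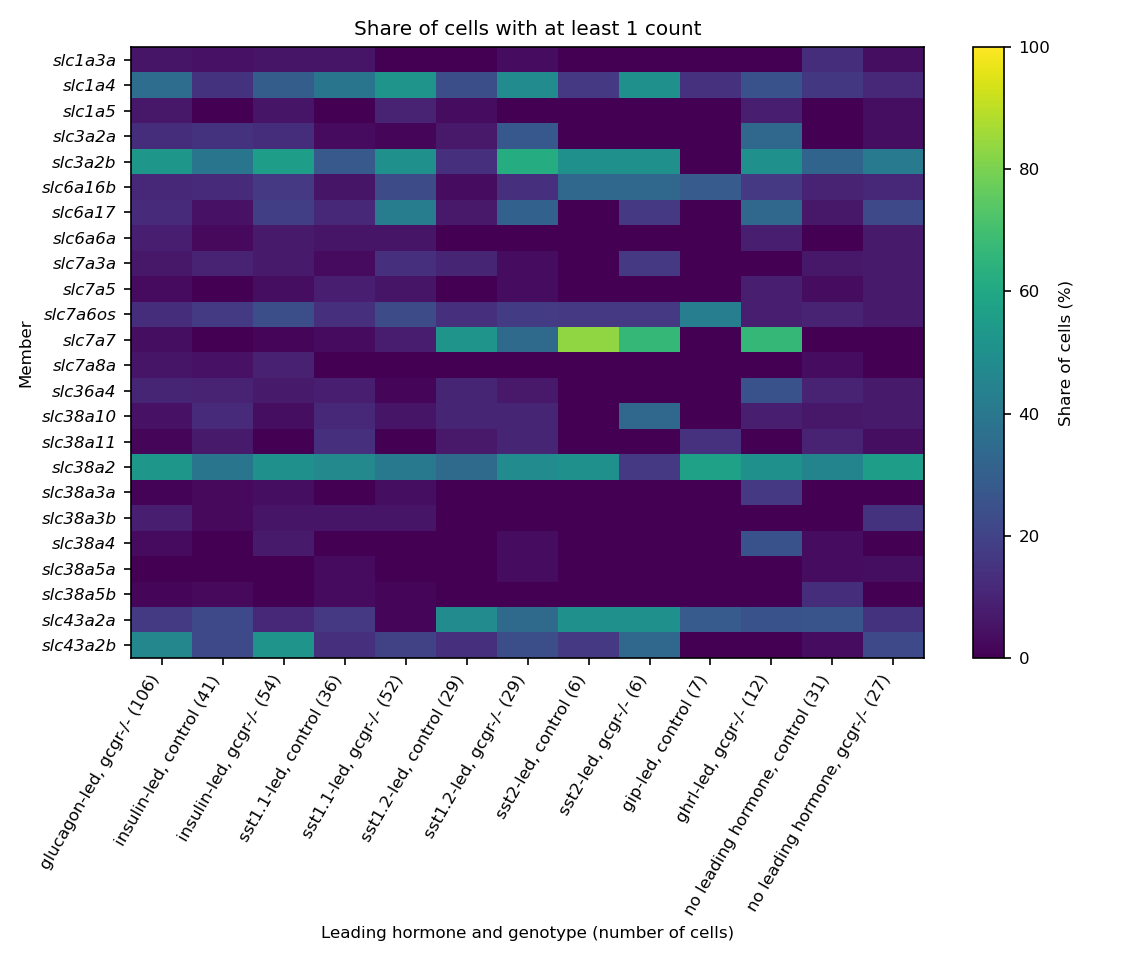
Share of cells with at least 1 count (color, percent) for the named members (rows) in each class of cells by leading hormone and genotype (columns, classes of at least 5 cells, with cell numbers). The *slc38a2* and *slc3a2b* rows are colored in most columns, *slc7a7* is colored in the *sst1.2*-led, *sst2*-led and *ghrl*-led columns, and *slc38a5a* and *slc38a5b* are near 0 in the glucagon-led column.

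The zebrafish copies of *Slc38a5*, which encodes a glutamine, serine and histidine carrier, were rarely counted in these cells. Over all 444 cells *slc38a5a* had 49 counts in 5 cells, and 27 of them were in 1 gcgr-/- *sst1.2*-led cell. It had no count in 106 gcgr-/- glucagon-led cells, which allows up to 2.83% of cells with a count and a level of up to 0.728 CPM by 3 counts. This limits cells with a count at this depth, not cells that express the gene. It also had none in the 54 gcgr-/- insulin-led cells, which allows up to 5.56%, and none in the 3 control glucagon-led cells, which are too few to set a limit. The second copy, *slc38a5b*, had 31 counts in 9 cells. Of these, 2 counts lay in 2 of 106 gcgr-/- glucagon-led cells (1.89%, 95% exact binomial interval 0.229 to 6.65), and no count lay in 54 insulin-led cells. Its highest share was in control cells with no leading hormone, 4 of 31 cells (12.9%) at 28.2 CPM, where 22 of the 26 counts sat in 1 cell and the epithelial and duct list was at 22189.1 CPM. Reads were counted on coding sequence in a 3′ end library, so a transcript whose reads fall in its untranslated end would be undercounted. Neither this nor whether it was equal between classes was tested.

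Of the 12 *slc38a* members only *slc38a2* was common, and each of the other 11 was in at most 7.21% of cells. It encodes SNAT2, a carrier induced by amino acid shortage in mammalian cells. It was counted in 52.8% of gcgr-/- glucagon-led cells at 76.7 CPM (68.5 to 85.7, exact Poisson interval), with a count in all 16 libraries and a library median of 70.7 CPM between 9.30 and 255.4. Insulin-led cells had 42.6 CPM in gcgr-/- and 20.3 CPM in control, *sst1.1*-led cells 49.8 and 27.3 CPM, and *sst1.2*-led cells 111.3 and 140.1 CPM. In control *sst1.2*-led cells 47 of the 68 counts were in 1 cell, and the library ranges of these classes overlapped.

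The rare *slc38a3b* encodes a copy of SNAT3, a glutamine carrier of liver, kidney and brain in mammals. It had 86 counts in 9 of 106 gcgr-/- glucagon-led cells (20.9 CPM), against 6 counts in 3 of 54 insulin-led cells (3.08 CPM), 6 counts in 3 of 52 *sst1.1*-led cells (3.99 CPM) and none in 58 *sst1.2*-led cells of either genotype. Cells of gcgr-/- with no leading hormone were as high as the glucagon-led ones, with 15 counts in 4 of 27 cells (22.5 CPM). In these cells the alpha cell list was at 10788.2 CPM and the epithelial and duct list at 1622.6 CPM. The counts of *slc38a3b* in glucagon-led cells came from 6 of 16 libraries, so the median library was at 0. One of the 3 control glucagon-led cells held 6 counts. The other copy, *slc38a3a*, had 57 counts in 8 cells of the whole set and 1 count in the 106 glucagon-led cells. The liver-type carrier *slc38a4* was in 3 of 106 glucagon-led, 4 of 54 insulin-led and 3 of 12 *ghrl*-led gcgr-/- cells.

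The heavy chain gene *slc3a2b* was counted in all 24 libraries and in every class except the 7 control *gip*-led cells. In gcgr-/- it was in 52.8% of glucagon-led cells at 191.0 CPM, 55.6% of insulin-led cells at 297.3 CPM, 50.0% of *sst1.1*-led cells at 296.9 CPM and 62.1% of *sst1.2*-led cells at 338.5 CPM. The control shares were 39.0%, 27.8% and 13.8% in insulin-led, *sst1.1*-led and *sst1.2*-led cells, at 176.1, 109.9 and 162.7 CPM. Library values overlapped between genotypes, with medians of 182.6 and 197.5 CPM in control and gcgr-/- insulin-led cells and of 42.6 and 233.1 CPM in *sst1.1*-led cells. For *sst1.2*-led cells, 2 of 8 control libraries (median 0, highest 762.6 CPM) and 11 of 14 gcgr-/- libraries (median 209.6 CPM) had a count. Control *sst1.2*-led cells were also shallower, with a median of 14403 counts per cell against 28798 in gcgr-/-. The copy *slc3a2a* was in 13.2% of gcgr-/- glucagon-led cells at 13.4 CPM and in 27.6% of gcgr-/- *sst1.2*-led cells at 6.73 CPM. All 7 gcgr-/- insulin-led cells with *slc3a2a* also had *slc3a2b*, as did 10 of the 14 glucagon-led cells.

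Of the light chains that pair with this heavy chain, *slc7a5* and *slc7a8a* were scarce in glucagon-led cells and over all cells (3.60% and 3.15%). The large neutral amino acid exchanger *slc7a5* (LAT1) had 32 counts in 16 cells overall and was in 3 of the 106 gcgr-/- glucagon-led cells at 2.43 CPM. Its relative *slc7a8a* (LAT2) had 25 counts in 14 cells, of which 6 were gcgr-/- glucagon-led, 5 gcgr-/- insulin-led, 2 control insulin-led and 1 a control cell with no leading hormone. No somatostatin-led cell of either genotype had a count of *slc7a8a*. Apart from these light chains, the cationic carrier *slc7a3a*, which does not pair with the heavy chain, was in 7 of 106 glucagon-led cells. Its level there was 21.9 CPM, and 57 of 90 counts were in 1 cell.

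A different pattern was seen for *slc7a7*, which encodes y+LAT1, a light chain that exports cationic amino acids in exchange for neutral ones and sodium. Among *sst1.2*-led cells it was found in 51.7% of those of control and in 34.5% of the gcgr-/- ones, at 80.3 CPM (57.1 to 109.8) and 49.3 CPM (38.1 to 62.7). It was also in 5 of 6 control and 4 of 6 gcgr-/- *sst2*-led cells, and in 3 of 3 control and 8 of 12 gcgr-/- *ghrl*-led cells. In *sst1.1*-led cells, which express another somatostatin gene, it was in 1 of 36 control and 4 of 52 gcgr-/- cells. Glucagon-led cells of gcgr-/- had it in 4 of 106 (3.77%) at 1.46 CPM, insulin-led cells in 0 of 41 and 1 of 54, and *gip*-led cells in 0 of 7 and 0 of 2.

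Putting the 3 classes together, a grouping chosen after the values were seen, 45 of 85 *sst1.2*-led, *sst2*-led and *ghrl*-led cells had a count of *slc7a7* (52.9%, 41.8 to 63.9) and 10 of 359 other cells did (2.79%, 1.34 to 5.06). The shares were 60.5% and 0.848% in control and 46.8% and 3.73% in gcgr-/-. The median depth of the 3 classes and the others was 19607 and 22984.5 counts per cell in control and 28798 and 24946 in gcgr-/-. The part of depth in these shares was not tested. After thinning every cell to 5000 counts, *slc7a7* was in 25.0% of control and 10.3% of gcgr-/- *sst1.2*-led cells, against 2.78% and 0% of *sst1.1*-led cells. Among control cells the *sst1.2*-led class was 51.5-fold above the *sst1.1*-led class in summed CPM (13.3 to 441, exact conditional interval), higher in 6 of 8 libraries and lower in none. That ratio rested on 2 counts in 1 *sst1.1*-led cell. It was in under 5% of the control *sst1.1*-led cells that *slc7a7* had a count, so the gene entered through the *sst1.2*-led ones. This comparison and that of gcgr-/- were added after the values were seen. No share of all genes is given beside them, so the ratios are a description only. In gcgr-/- the ratio was 2.40 (1.54 to 3.80) and 9.94 without the *sst1.1*-led cell that held 24 of 31 counts, with 8 of 13 libraries higher and 1 lower. Plate letter here means the first letter of the cell name, and that it marks a plate is assumed. Over the plate letters left out, the control ratio ran from 19.8 to 21.2, below its value with all cells, and the gcgr-/- ratio from 1.73 to 5.01. None of the 15 control *sst1.2*-led cells with *slc7a7* had a count of *slc3a2b*, which was in 4 cells of that class. In gcgr-/- 6 of 10 such cells had both, where *slc3a2b* was in 18 of all 29 *sst1.2*-led cells. Median depth of this class was 14403 counts per cell in control and 28798 in gcgr-/-, and its part was not tested.

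**Figure D2:**
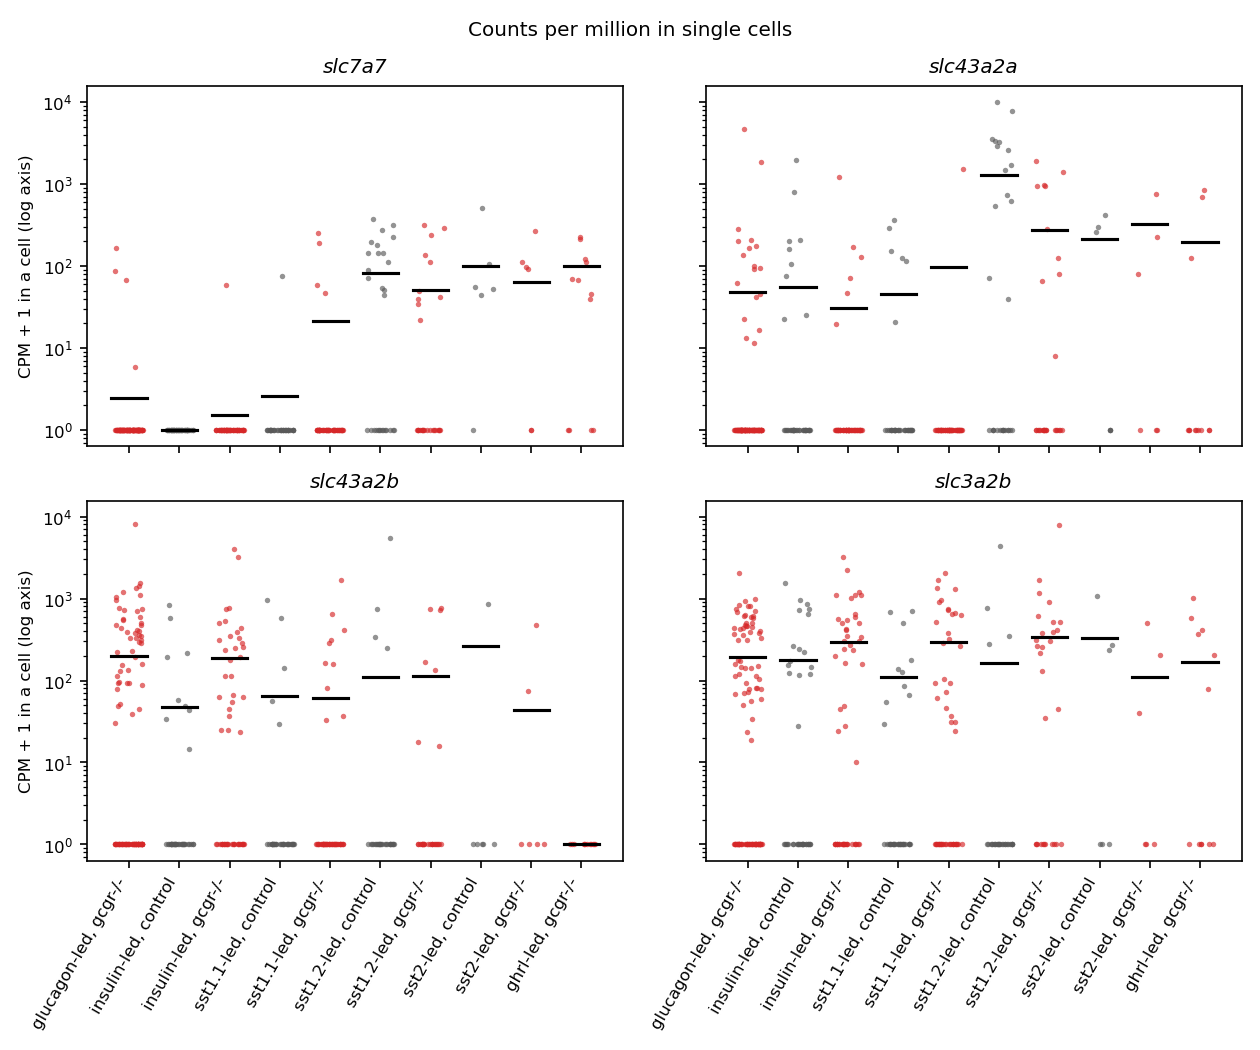
Level in single cells (CPM + 1, logarithmic axis) of *slc7a7*, *slc43a2a*, *slc43a2b* and *slc3a2b* by class of leading hormone, with control cells in grey, gcgr-/- cells in red and the summed CPM of each class as a black bar. Cells with *slc7a7* are frequent in the *sst1.2*-led, *sst2*-led and *ghrl*-led classes, and *slc43a2a* reaches 9883.3 CPM in a control *sst1.2*-led cell.

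The pair of *slc43a2* genes, which encode LAT4, differed in where they were counted. In control *sst1.2*-led cells *slc43a2a* summed to 1266.8 CPM (1168.6 to 1370.9) and was in 14 of 29 cells, whose values ran from 38.8 to 9883.3 CPM with a median of 2176.6 CPM. The *sst1.1*-led control cells had 44.4 CPM in 6 of 36 cells, a 28.5-fold difference (21.7 to 38.1) that was 19.4-fold without the cell with most counts and higher in 7 of 8 libraries. Of the 14 control *sst1.2*-led cells with *slc43a2a*, 10 also had *slc7a7*, which was in 15 of the 29 cells. Of the 29 gcgr-/- *sst1.2*-led cells, 10 had *slc43a2a*, 10 had *slc7a7* and only 4 had both. The level of *slc43a2a* in gcgr-/- *sst1.2*-led cells was 276.5 CPM in 10 of 29 cells, 4.58-fold lower than control (4.02 to 5.23) and 3.11-fold lower without the cell with most counts. These comparisons of *sst1.2*-led cells were also added after the values were seen. The median library was at 988.4 CPM among 8 of control and at 11.7 CPM among 14 of gcgr-/-, with ranges that overlapped. Between these same cells the liver list summed to 67.97 CPM for control cells and 1303.9 CPM for gcgr-/- cells. Only 1 of its 5 genes had a count in control and 2 in gcgr-/-, and *fabp10a* had none in either. The acinar list also differed, with 661.2 and 47.82 CPM. So did the list of other endocrine hormones, with 6348.2 and 728.6 CPM, and the alpha cell list, with 628.2 and 1922.6 CPM. Their part in the difference was not tested. In gcgr-/- *sst1.1*-led cells all 143 counts of *slc43a2a* were in 1 cell.

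The second copy, *slc43a2b*, was frequent in gcgr-/- glucagon-led and insulin-led cells. It was in 46.2% of gcgr-/- glucagon-led cells at 196.9 CPM (183.6 to 210.9), in 14 of 16 libraries with a median of 188.4 CPM, and in 51.9% of gcgr-/- insulin-led cells at 188.6 CPM. Control insulin-led cells had it in 9 of 41 cells at 46.1 CPM, and *slc43a2a* also in 9 of 41. In gcgr-/- *sst1.1*-led and *sst1.2*-led cells it was in 19.2% and 24.1%, at 60.4 and 113.6 CPM, and none of the 12 *ghrl*-led cells had a count. Of the 106 glucagon-led cells, 49 had *slc43a2b*, 18 had *slc43a2a* and 9 had both.

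In the *slc1a* family, *slc1a4* encodes ASCT1, a sodium-coupled carrier of alanine, serine and cysteine. It was in 35.9% of gcgr-/- glucagon-led cells at 55.8 CPM, although 100 of the 230 counts were in 1 cell. It was in 51.9% of gcgr-/- *sst1.1*-led cells at 74.4 CPM, with a count in all 15 libraries, and in 38.9% of control *sst1.1*-led cells at 17.1 CPM. The glutamine carrier *slc1a5* (ASCT2) had 319 counts in 18 cells, 205 of them in 1 gcgr-/- insulin-led cell, and only 1 of the 319 came from a control cell. The glial-type glutamate transporter *slc1a3a* was in 6 of 106 glucagon-led cells at 7.04 CPM and in 4 of 31 control cells with no leading hormone at 46.6 CPM. In the *slc6a* family, *slc6a17*, a transporter of neutral amino acids into synaptic vesicles, was in 12.3% of gcgr-/- glucagon-led, 18.5% of insulin-led and 42.3% of *sst1.1*-led cells, and *slc6a16b*, a family member with no known substrate, was in 11.3%, 16.7% and 23.1%. The taurine transporter *slc6a6a* and *slc36a4*, a carrier of proline and tryptophan, were in 9 and 11 of the 106 glucagon-led cells.

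Glucagon-led cells were first compared with insulin-led cells of the same gcgr-/- sample, which came from 16 and 15 libraries. In summed CPM, glucagon-led cells had more *slc38a3b*, *slc3a2a* and *slc1a3a* and less *slc1a5* and *slc6a17*. Shares of glucagon-led and insulin-led cells were close for *slc3a2a* (13.2% and 13.0%), *slc1a3a* (5.66% and 5.56%) and *slc1a5* (6.60% and 5.56%). They were 8.49% and 5.56% for *slc38a3b* and 12.3% and 18.5% for *slc6a17*. A gene entered if the pooled sets held 10 or more counts of it, spread over 5% of their cells or more, and was taken as different at 2-fold with the counting interval on that side of 1. Of 17 members that entered, 3 were higher and 2 lower, where 26.2% of all 5129 genes tested were higher and 18.3% lower. The median log2 ratio was 0.34 over the members and 0.11 over all genes. For *slc38a3b* the ratio was 6.79 (2.99 to 19.0), or 4.73 without the cell with most counts, but it was higher in 4 and lower in 3 of 15 libraries. For *slc3a2a* it was 2.37 (1.23 to 5.02) with 9 libraries higher and 4 lower, and for *slc1a3a* 2.75 (1.05 to 9.09), and both came below 2 without 1 cell, at 1.56 and 1.75. With each plate letter left out in turn, the ratio ran from 4.11 to 38.0 for *slc38a3b*, from 1.55 to 3.18 for *slc3a2a* and from 1.66 to 6.82 for *slc1a3a*. The 15.4-fold lower level of *slc1a5* rested on 1 insulin-led cell with 205 of 211 counts, and without it the ratio was 2.24 in the other direction, and without plate letter C 4.07. The level of *slc6a17* was 2.19-fold lower (1.59 to 3.01), 1.60-fold without 1 cell, while 8 of 15 libraries had it higher. The common members did not pass: *slc38a2* had a ratio of 1.80 (1.41 to 2.33) and was higher in 10 of 15 libraries, *slc3a2b* 0.643 (0.577 to 0.717) and lower in 10, and *slc43a2b* 1.04 (0.922 to 1.18).

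The same glucagon-led cells were set against the 87 somatostatin-led cells of gcgr-/-, led by *sst1.1*, *sst1.2* or *sst2*. They had less *slc7a7*, *slc43a2a*, *slc6a17*, *slc7a6os*, *slc6a16b* and *slc1a5* and more *slc38a3b*, *slc6a6a*, *slc36a4*, *slc3a2a* and *slc43a2b*. Of 18 members that entered, 5 were higher and 6 lower, where 19.5% of 5006 genes were higher and 23.9% lower, and the median log2 ratio was -0.49 over the members and -0.17 over all genes. The level of *slc7a7* was 25.0-fold lower (11.1 to 69.6) and lower in 13 of 16 libraries, 20.3-fold without the cell with most counts. The level of *slc6a17* was 3.10-fold lower (2.38 to 4.07) and lower in 12 of 16 libraries. The level of *slc43a2b* was 2.40-fold higher (2.09 to 2.78), in 12 of 16 libraries, and 3.99-fold higher without 1 somatostatin-led cell. For *slc38a3b* the ratio was 10.8 (4.76 to 30.2), with 6 libraries higher and 3 lower. For *slc6a6a* it was 7.34 (2.65 to 28.3) on 39 and 4 counts, or 4.20 without 1 cell, for *slc36a4* 5.02 (2.12 to 14.5) with 8 libraries higher and 2 lower, and for *slc3a2a* 4.14 (2.09 to 9.11), or 2.73 without 1 cell, with 8 higher and 6 lower. The level of *slc43a2a* was 4.08-fold lower (3.46 to 4.82), *slc7a6os* 2.76-fold, *slc1a5* 3.44-fold and *slc6a16b* 2.66-fold. For *slc43a2a* the shares of cells were close, 17.0% of glucagon-led and 16.1% of somatostatin-led cells. It was 3.20-fold lower without the cell with most counts and as little as 1.19-fold lower over 10 alternatives. Without the cell with most counts *slc1a5* was 2.08-fold and *slc6a16b* 1.69-fold lower, and after thinning *slc6a16b* had a ratio of 1.37. Over the plate letters left out, the ratio ran from 1.62 to 14.9 for *slc6a6a*, 2.55 to 25.9 for *slc36a4*, 6.18 to 20.5 for *slc38a3b*, 2.33 to 5.44 for *slc3a2a*, 1.97 to 4.13 for *slc43a2b*, 0.0739 to 0.494 for *slc43a2a*, 0.115 to 0.462 for *slc1a5*, 0.193 to 0.641 for *slc7a6os*, 0.223 to 0.494 for *slc6a17* and 0.0260 to 0.0556 for *slc7a7*. Of the members counted as different, *slc36a4*, *slc38a3b*, *slc6a6a* and *slc7a7* were in under 5% of the cells of the lower set and entered through the other set, so their calls follow in part from the entry rule. Since both comparisons use the same glucagon-led cells, a ratio that points the same way in both is not a second observation.

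**Figure D3:**
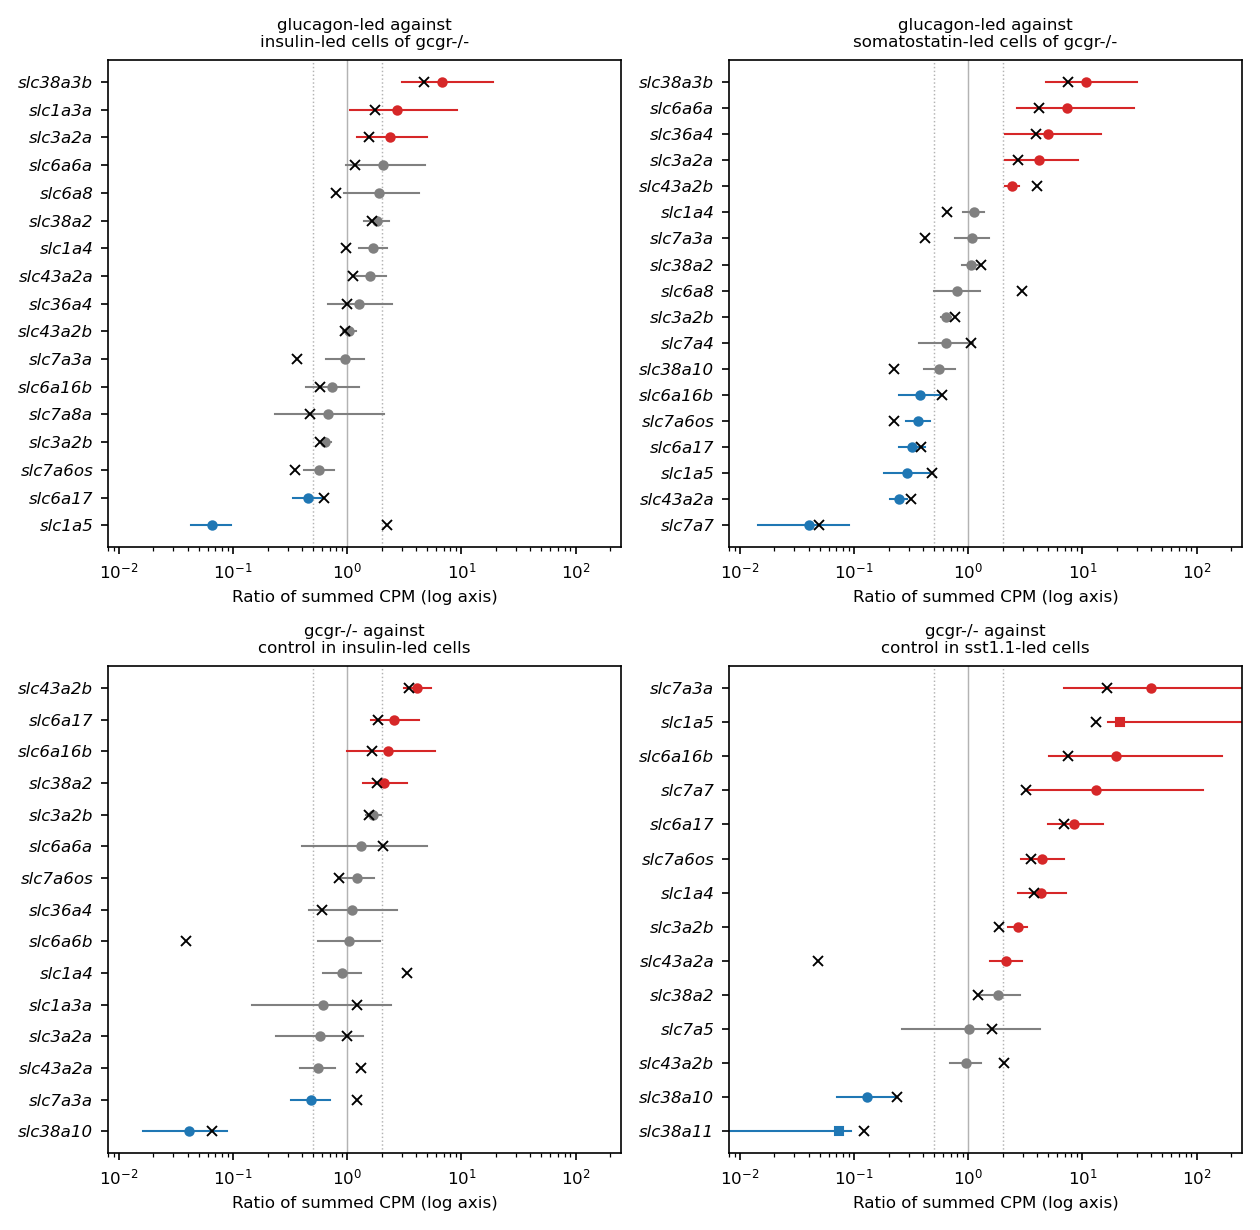
Ratio of summed CPM (logarithmic axis) with its exact counting interval at 95% for each member that entered, in the 4 comparisons, with members past 2-fold higher in red, lower in blue and the rest in grey. Squares are ratios with a set at 0 put at 3 counts, crosses are ratios without the cell with most counts, dotted lines mark 2-fold, and intervals are clipped at the edges of the axis. Among members past 2-fold, the crosses on the other side of 1 are 1 in each of 3 panels. They are *slc1a5* for glucagon-led against insulin-led cells, *slc7a3a* for genotypes in insulin-led cells and *slc43a2a* for *sst1.1*-led cells.

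Insulin-led cells allowed gcgr-/- (54 cells) to be set against control (41 cells), which the 3 control glucagon-led cells did not. The gcgr-/- insulin-led cells had more *slc43a2b*, *slc6a17*, *slc6a16b* and *slc38a2* and less *slc38a10* and *slc7a3a*. Of 15 members that entered, 4 were higher and 2 lower, where 28.7% of 4953 genes were higher and 26.5% lower. The median log2 ratio was 0.14 over the members and 0.03 over all genes. The level of *slc43a2b* was 4.09-fold higher (3.14 to 5.40) and 3.47-fold without the cell with most counts, with libraries from 0 through a median of 37.0 to 97.6 CPM in control and from 0 through 120.4 to 713.4 CPM in gcgr-/-, which overlap. The level of *slc38a2* was 2.10-fold higher (1.36 to 3.32), 1.84-fold without 1 cell, *slc6a17* 2.57-fold (1.61 to 4.23) on 2 control and 10 gcgr-/- cells, and *slc6a16b* 2.29-fold (1.002 to 5.88). Without the cell with most counts *slc6a17* was at 1.88 and *slc6a16b* at 1.66, and without the libraries of plate letter D *slc6a16b* was at 0.828. The heavy chain *slc3a2b* had a ratio of 1.69 and did not pass. The level of *slc38a10*, a relative of the glutamine carriers, was 24.2-fold lower (11.4 to 61.3) and 15.3-fold without 1 cell, with 124 counts in 5 of 41 control and 7 counts in 2 of 54 gcgr-/- cells, while the median library of both genotypes was at 0. The 2.09-fold lower *slc7a3a* turned to a ratio of 1.21 without 1 cell and of 2.17 without plate letter B. Over the plate letters left out, the ratio ran from 1.40 to 6.06 for *slc6a17*, from 1.43 to 2.77 for *slc38a2* and from 0.0229 to 0.105 for *slc38a10*. Both *slc6a17* and *slc38a10* were in under 5% of cells of the lower genotype and entered through the other. The alpha cell list was at 3589.2 CPM in these gcgr-/- cells and 1105 CPM in those of control and the acinar list at 21.53 and 183.1 CPM, and their part in the ratios was not tested.

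In *sst1.1*-led cells, 52 of gcgr-/- and 36 of control, more members were higher. They included the carriers *slc7a3a*, *slc1a5*, *slc6a17*, *slc1a4* and *slc7a7*, the heavy chain *slc3a2b*, *slc6a16b*, *slc43a2a* and the non-transporter *slc7a6os*, and *slc38a10* and *slc38a11* were lower. Of 14 members that entered, 9 were higher and 2 lower, where 35.9% of 4485 genes were higher and 20.5% lower. The median log2 ratio was 1.78 over the members and 0.47 over all genes, so the whole set of genes was also shifted toward gcgr-/-. The level of *slc6a17* was 8.36-fold higher (4.99 to 15.0) and 6.89-fold without the cell with most counts, in 22 of 52 cells against 4 of 36, with library medians of 80.7 and 2.39 CPM. The level of *slc1a4* was 4.34-fold higher (2.73 to 7.20), 3.76-fold without 1 cell, with library medians of 60.9 and 11.0 CPM, and *slc7a6os* was 4.38-fold higher (2.91 to 6.83). The level of *slc3a2b* was 2.70-fold higher (2.23 to 3.29) but 1.86-fold without 1 cell. Ratios of *slc7a3a* (40.1, 6.85 to 1615), *slc6a16b* (19.6, 5.13 to 167) and *slc7a7* (13.2, 3.36 to 114) rested on 1, 2 and 2 control counts, and were 16.3, 7.46 and 3.19 without the cell with most counts. With no control count, put at 3 counts, *slc1a5* was 21.3-fold higher on 75 counts in 5 cells (13.0-fold without 1 cell). With no gcgr-/- count, also put at 3, *slc38a11* was 13.7-fold lower, from 35 counts in 5 control cells (8.13-fold without 1 cell). Over all alternatives these differences came down to 3.06-fold for *slc1a5* and 3.31-fold for *slc38a11*. The level of *slc38a10* was 7.67-fold lower (4.43 to 14.2) and 4.19-fold without 1 cell, but had a ratio of 8.02 without plate letter B, and the 2.14-fold higher *slc43a2a* turned to 0.0478 without its only positive gcgr-/- cell. Since *slc1a5*, *slc7a3a*, *slc7a7* and *slc38a11* were in under 5% of cells of the lower genotype and entered through the other, their calls follow in part from the entry rule and add little to the counts of 9 and 2. Over the plate letters left out, the ratio ran from 1.35 to 3.26 for *slc3a2b*, 2.96 to 22.9 for *slc7a6os*, 7.08 to 27.2 for *slc6a16b*, 4.98 to 57.1 for *slc7a3a*, 4.54 to 17.3 for *slc7a7*, 7.94 to 28.0 for *slc1a5* and 0.0289 to 0.111 for *slc38a11*, and that of *slc43a2a* was 0.0683 without plate letter E. In gcgr-/- and control *sst1.1*-led cells, the alpha cell list was at 2986.5 and 862.7 CPM, the beta list at 4751 and 16451 CPM, the other endocrine list at 5747.9 and 1884.3 CPM and the epithelial list at 921.8 and 323.4 CPM. Their part in these ratios was not tested.

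The remaining members by count were mostly in a handful of cells. In the *slc6a* family, 12 further members, among them transporters of GABA, glycine, creatine and taurine, were in 0.451% to 3.60% of cells. Of the *slc38a* family, *slc38a11* was in 4.51% and *slc38a6*, *slc38a7*, *slc38a8b* and *slc38a9* were in between 0.451% and 3.38%. In glucagon-led cells of control, 6 members had a count, and the 3 cells give intervals too wide to set beside the 106 cells of gcgr-/-.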

How the data were processed

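Single-cell 3′ end libraries were made by the authors with a modified Smart-seq2 protocol. Per the study's methods and the submitters' processing notes, the authors removed poly T tails, trimmed with Trim Galore, aligned to GRCz11 with STAR and counted reads on coding sequence with featureCounts. Versions are not given in the sources used here, and the counting options listed set no strand. The primer carried molecular identifiers whose collapsing is not stated. The deposited values are whole-number read counts, unnormalized, for each gene in each cell. The tables of all sequenced cells were used, joined by gene position because 17 names were spelled differently. The authors' tables of cells kept after removal of potential β and δ cells were not used, since those cells were needed.

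Members were matched by prefix ignoring case, and 2 are spelled in capitals. One gene of these families is not reported here. The members and gene lists were chosen with earlier results of these data known. Named were 12 carriers of interest, the 10 members in the largest share of cells and each member past 2-fold, and other members are given by counts and ranges. Comparisons of *sst1.2*-led cells were added after the values were seen.

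Counts were summed per class and genotype and given as CPM with exact Poisson intervals. Ratios have exact conditional intervals and shares exact Clopper-Pearson intervals at the 95% level. Intervals of levels and ratios cover counting error only and are narrower than they should be if PCR copied a molecule into several reads. Intervals of shares treat the cells of 1 sample as independent draws, although these cells are grouped in libraries. They do not cover differences between samples. A set at 0 was put at 3 counts. Depth ran from 2231 to 286288 counts per cell, 4760583 in all for control and 10283390 for gcgr-/-. Libraries are the prefixes of the cell names, and values per library are a description. Plate letters are the first letters of those names, which the labels do not explain. Doublets were not called. The calculation was tested on simulated data of well-counted genes, with no variation between cells beyond counting. That test does not bear on members whose counts sit in few cells. Alternatives were totals without the 8 hormone genes, thinning to 5000 counts, at least 750 genes per cell, a leading hormone at 5%, no minimum share of cells, 3-fold, each plate letter left out, the mean of per-cell CPM and, chosen after seeing the data, leaving out the cell with most counts of a gene. Python 3.11.15, numpy 2.4.6, pandas 2.3.3, scipy 1.17.1 and matplotlib 3.10.9 were used.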

Additional observations from a re-analysis of the deposited data

How the results depend on the processing

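No paired analysis was possible because each genotype had 1 sample. Of 706 ratios recomputed under the alternatives, 70 crossed 1, of which 59 belonged to members not past 2-fold and 11 to members past it. Those 11 are given next. Of the shares of cells, 79 moved and 353 did not. Against insulin-led cells, *slc1a5* had a ratio of 4.07 without plate letter C (0.0262 to 4.07 over the letters) and 2.24 without its top cell. Against somatostatin-led cells, *slc6a16b* had 1.37 after thinning. Between genotypes in insulin-led cells, *slc7a3a* had 2.17 without plate letter B (0.225 to 2.17), 1.21 without its top cell and 1.18 as a mean of per-cell CPM, and *slc6a16b* had 0.828 without plate letter D (0.828 to 3.75). In *sst1.1*-led cells, *slc43a2a* had 0.882 after thinning, 0.0683 without plate letter E (0.0683 to 2.96) and 0.0478 without its top cell, and *slc38a10* had 8.02 without plate letter B (0.0457 to 8.02). By contrast, *slc43a2b* between genotypes in insulin-led cells stayed within 3.06 to 7.40 over 12 alternatives and *slc6a17* in *sst1.1*-led cells within 5.52 to 10.0, and *slc7a7* was 4.27-fold to 38.5-fold lower in glucagon-led than in somatostatin-led cells over 10. Since *slc7a7* was in under 5% of the glucagon-led cells, it entered through the somatostatin-led ones. Its direction thus follows in part from the entry rule. The alternatives reuse the same cells and are not further observations. Numbers of members past 2-fold moved more. No share of all genes is given beside them under these alternatives, so they describe only how far the calls moved. Against insulin-led cells (3 higher, 2 lower), there were 0 lower after thinning, 5 higher at 750 genes, 10 and 7 with no minimum share, 1 and 1 at 3-fold, 3 to 6 higher and 1 to 3 lower over plate letters, and 1 higher without top cells. Against somatostatin-led cells (5 and 6), there were 1 and 2 after thinning, 13 and 12 with no minimum share, and 3 to 5 higher over plate letters. Between genotypes in insulin-led cells (4 and 2), there were 1 lower with totals without hormone genes, 2 and 1 after thinning, 9 higher with no minimum share, 1 and 1 at 3-fold, 1 to 2 lower over plate letters and 2 higher without top cells. In *sst1.1*-led cells (9 and 2), there were 3 and 1 after thinning, 4 lower with no minimum share, and 5 to 13 higher and 0 to 3 lower over plate letters, with 0 lower without plate letter B and 5 higher without plate letter E. The cause of these changes was not tested beyond the cells left out.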

Other observations

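Genes that respond to amino acid supply were read from lists chosen with earlier results of these data known. In the amino acid response list, gcgr-/- glucagon-led cells had more *ddit4* (15.9-fold, 5.30 to 78.6), *trib3* (5.12-fold, 2.06 to 16.4) and *cebpb* (2.98-fold, 2.36 to 3.80) than insulin-led cells, and less *phgdh*, the first enzyme of serine synthesis (3.03-fold lower, 2.78 to 3.29), *ddit3* (2.05-fold) and *mthfd2* (3.39-fold, a ratio of 6.97 without 1 cell). Of 11 members that entered, 3 were higher and 3 lower, beside 26.2% and 18.3% of all genes. Glutamine synthetase, *glula*, was 3.25-fold higher (1.84 to 6.16). Of 9 glutamine, glutamate and alanine enzymes that entered in that comparison, 2 were higher and 1 lower, beside the same shares of all genes. Against somatostatin-led cells of gcgr-/-, 10 genes of the response list entered, with 1 higher and 2 lower. Of 9 enzymes entering there, 2 were higher and 2 lower, and of all genes 19.5% were higher and 23.9% lower. Between genotypes, *ddit3*, a stress-induced transcription factor, was 4.06-fold higher in gcgr-/- insulin-led cells (3.64 to 4.54) and 4.68-fold in *sst1.1*-led cells (3.92 to 5.63), and *psat1*, another serine synthesis enzyme, 2.87-fold and 12.6-fold. Of the 8 and 9 list members that entered there, 4 and 4 were higher and 0 and 1 lower, beside 28.7% and 35.9% of all genes higher and 26.5% and 20.5% lower. Median log2 ratios of this list were 1.31 and 0.84, beside 0.03 and 0.47 over all genes. Of 8 glutamine, glutamate and alanine enzymes that entered in each, 2 were higher and 2 lower. The enzymes had median log2 ratios of 0.00 and -0.77, beside the same medians of all genes. The glutaminase gene *glsb* was 6.01-fold and 9.28-fold higher, or 4.63-fold and 4.38-fold without the cell with most counts, and the glutamate dehydrogenase gene *glud1b* was 7.16-fold and 4.69-fold lower, or 1.40-fold lower and at a ratio of 1.19 without 1 cell.

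In the list of the mTORC1 amino acid branch, *rraga*, a lysosomal GTPase gene, had 262 counts in gcgr-/- and 5 in control insulin-led cells, a 38.4-fold difference (16.4-fold without 1 cell), but was 2.69-fold lower in gcgr-/- *sst1.1*-led cells, and the difference between these classes was not tested. The gene *lamtor2* was lower in both, 2.85-fold and 3.54-fold, or 2.41-fold and 1.94-fold without 1 cell. Of 9 and 11 list members that entered, 3 and 3 were higher and 1 and 3 lower. Of all genes, 28.7% and 35.9% were higher and 26.5% and 20.5% lower. Median log2 ratios were 1.29 and 0.25 over the list and 0.03 and 0.47 over all genes. In gcgr-/- glucagon-led against insulin-led cells, 8 list members entered, with 1 higher and 2 lower, beside 26.2% and 18.3% of all genes. Against somatostatin-led cells 9 entered, with 0 higher and 2 lower, beside 19.5% and 23.9% of all genes.

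Precision is limited by 1 sample per genotype, by 3 control glucagon-led cells, and by reads for which no collapsing of molecular identifiers is stated. Library, plate letter and genotype cannot be told apart, so genotype ratios describe these 2 sets of cells.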
